A study of Rattus norvegicus with 24 samples.

Results

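The 10 genes described here, Map1lc3a, Map1lc3b, Gabarapl1, Sqstm1, Bnip3, Ulk1, Becn1, Ctsl, Tfeb and Atg14, act in autophagy and mitophagy. They were taken from the deposited rat table by gene symbol. Each matched 1 of its 21067 rows, and all 10 were among the 14772 genes with a mean of at least 0.1 FPKM (fragments mapped to a transcript, scaled to its length and to the depth of the library) over the 24 libraries. The libraries came from poly(A) mRNA of a thigh muscle, the quadriceps femoris, taken from Sprague-Dawley rats of both sexes, 6 weeks old at the start, with 6 rats in each of 4 groups. The control group was fed normally and did not train. The treadmill group trained for 20 min a day for 7 weeks at speeds up to 35 m/min and then ran to exhaustion. Catgut group 1 followed the same exercise protocol after thread had been embedded at 4 acupoints of the hindlimb (Yang Wa, Qian Shen, Han Gou, Xie Qi). It also had thread at 2 others (Bai Hui, Qiang Feng). Catgut group 2 was treated in the same way but also received thread at Fei Shu. The hindlimb acupoints lie in a groove of the biceps femoris, a neighbour of the muscle sampled. The final run ended at exhaustion, so its length was not fixed. How long each rat ran is not given in the sources used here, and the part of this length was not tested. No catgut group without training and no sham needle group was among the samples, so catgut and training cannot be told apart in a comparison with control.

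Autophagy encloses cytoplasm in a double membrane, the autophagosome, and delivers it to the lysosome for breakdown. The kinase Ulk1 starts the process, a lipid kinase complex with Becn1 and Atg14 marks the membrane, and the LC3 and GABARAP proteins are fixed to it and hold cargo receptors. Sqstm1 brings ubiquitinated cargo, and Bnip3 on the outer mitochondrial membrane brings mitochondria, which is called mitophagy. In skeletal muscle this route is known for its response to fasting, exercise and disuse. Transcript levels do not measure the flow of material through it.

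Promoters from RefSeq (rat build GRCr8, which is not the build of the table) were found for 8 of the 10 genes, and not for Map1lc3a and Becn1. In the window from 250 bases before to 50 after the start, the E-box CACGTG, the core of the motif bound by Tfeb, was in 2 of the 8, Bnip3 and Atg14, and in 6.42% of all 33469 promoters. The longer CLEAR motif of 10 letters, which Tfeb prefers and which contains the E-box, was in 0 of 8 and in 0.233% of all, and the FoxO motif GTAAACA was in 0 of 8 and in 3.78% of all. Both strands were searched. The 4 windows below run from 150 bases before to 30 after the start, 5′ to 3′ on the gene's strand, with the E-box in capitals. Bnip3 and Atg14 are shown for the E-box, and Gabarapl1 and Ulk1 because they had the largest differences between catgut group 2 and the treadmill group.
Bnip3 (chr1:203154933-203155112, minus strand): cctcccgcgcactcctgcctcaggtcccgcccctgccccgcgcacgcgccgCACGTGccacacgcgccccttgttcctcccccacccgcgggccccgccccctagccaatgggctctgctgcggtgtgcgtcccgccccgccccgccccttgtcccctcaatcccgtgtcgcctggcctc
Atg14 (chr15:23306786-23306965, minus strand): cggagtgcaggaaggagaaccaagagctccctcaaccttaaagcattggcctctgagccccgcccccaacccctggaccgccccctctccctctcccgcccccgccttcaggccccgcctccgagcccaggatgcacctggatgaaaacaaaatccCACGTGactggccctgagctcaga
Gabarapl1 (chr4:164666182-164666361, plus strand): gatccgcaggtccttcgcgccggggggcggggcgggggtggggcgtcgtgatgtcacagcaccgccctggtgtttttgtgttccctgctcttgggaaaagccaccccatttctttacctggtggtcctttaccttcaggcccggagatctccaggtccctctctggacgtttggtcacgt
Ulk1 (chr12:51511342-51511521, plus strand): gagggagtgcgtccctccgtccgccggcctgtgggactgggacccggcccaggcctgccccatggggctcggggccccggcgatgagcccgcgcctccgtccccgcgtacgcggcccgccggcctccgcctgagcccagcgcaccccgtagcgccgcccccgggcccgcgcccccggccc
The E-box of Bnip3 began 99 bases before the start and that of Atg14 at base 7 after it. A match is only a run of letters and not a measured binding site.

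The total count per library was 45945938 to 78278080, and the 10 genes had between 333 and 87106 counts in a library. Of 9 markers of skeletal muscle, 6 were in the table, with a summed level of 69943 to 100912 FPKM in every library, and Ttn, Myh2 and Myh4 were not analysed here. In 3 libraries the summed level of 6 liver transcripts was over 10 FPKM, namely 198 in control replicate 2, 23.4 in treadmill replicate 2 and 307 in treadmill replicate 3. The study assigned equal numbers of males and females to each group, and 3 Y-linked genes summed to over 3 FPKM in 3 of 6 libraries of the control, treadmill and catgut 1 groups and in 2 of 6 of catgut group 2. In whole muscle, fewer cells of a type and less RNA per cell cannot be told apart.

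On the FPKM scale, which can be compared between genes, 6 of the 10 genes were among the more abundant transcripts of the muscle. Sqstm1 had a mean of 448 FPKM over the 24 libraries, Bnip3 303, Map1lc3a 202, Ctsl 108, Gabarapl1 82.9 and Map1lc3b 82.2, and each lay above at least 95% of the genes tested. Tfeb had 23.5, Becn1 19.6 and Ulk1 16.6 FPKM, and Atg14 was lowest with 2.91. The ratio of the highest to the lowest library was 1.39 for Tfeb, the steadiest of the 10, and 3.25 for Ulk1, the most variable.

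**Figure D1:**
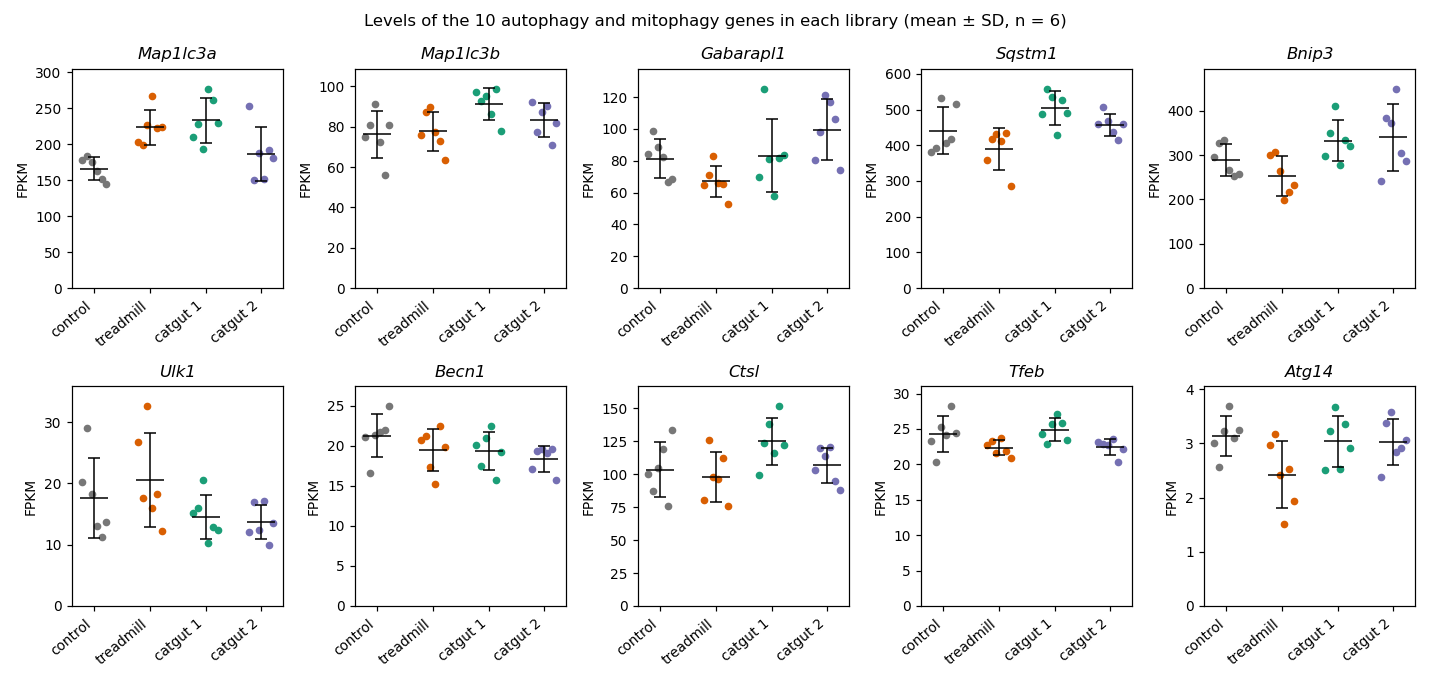
FPKM (y axis, from 0) of each gene in each of the 4 groups (x axis), with 1 point per library and the mean ± SD of 6 libraries as bars. For Map1lc3a, all 6 treadmill points (199 to 267) lie above all 6 control points (145 to 184), while the other 9 genes overlap between every pair of groups.

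Each pair of groups was compared by edgeR (quasi-likelihood test, two-sided). None of the 10 genes had a Benjamini-Hochberg adjusted p under 0.05 in any of the 6 comparisons, where 0.0542% of all genes did between treadmill and control, 0.0474% between catgut 1 and treadmill and 0.237% between catgut 2 and treadmill. The other pairs gave 0.00677% (catgut 2 against catgut 1), 0.0203% (catgut 1 against control) and 0.508% (catgut 2 against control). DESeq2, run as an alternative, gave 1 of the 10 genes an adjusted p under 0.05 in treadmill against control (0.758% of all genes by the same tool), catgut 1 against treadmill (0.941%), catgut 2 against treadmill (2.09%) and catgut 1 against control (1.1%). It gave 0 of 10 in catgut 2 against catgut 1 (0.0542%) and catgut 2 against control (4.7%), and limma on log2(FPKM + 1) gave 0 of 10 in each comparison (0.0135% to 0.474% of all genes). Without adjustment the counts at p under 0.05 were larger. Catgut group 1 against treadmill had 6 of 10 genes at that p, where 6.93% of all genes had it, namely 5 higher (3.44% of all genes) and 1 lower (3.49%). Leaving out 1 library at a time gave 3 to 5 genes (5.95% to 8.21% of all genes), and 3 without catgut 1 replicate 5, of which 0 were lower. Catgut group 2 against treadmill had 4 of 10 (10.7% of all genes), 3 higher (5.6%) and 1 lower (5.14%). Treadmill against control had 2 of 10 (9.12%), 1 higher (4.03%) and 1 lower (5.08%). Catgut 1 against control had 1 (9.84%), which was higher (4.78%), with 0 lower (5.06%), and catgut 2 against control had 2 (16.4%), 1 higher (8.04%) and 1 lower (8.4%). The catgut groups differed from each other in 1 gene (3.26%), which was lower in catgut 2 (1.39%), with 0 higher (1.87%). The study's criterion, a fold change of 1.5 in either direction and a p under 0.05, was applied here to the ratio of mean FPKM and edgeR's unadjusted p. Of the 10 genes, Ulk1 met it in catgut 2 against treadmill (3.76% of all genes). None met it in treadmill against control (2.85% of all genes), catgut 1 against treadmill (3.12%), catgut 2 against catgut 1 (1.25%), catgut 1 against control (4.62%) or catgut 2 against control (5.96%). The 2 comparisons of catgut with treadmill share the treadmill libraries, as the comparisons with control share theirs, so they are not independent. Because the genes were chosen with earlier results known, these shares describe them and do not test them as a set.

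**Figure D2:**
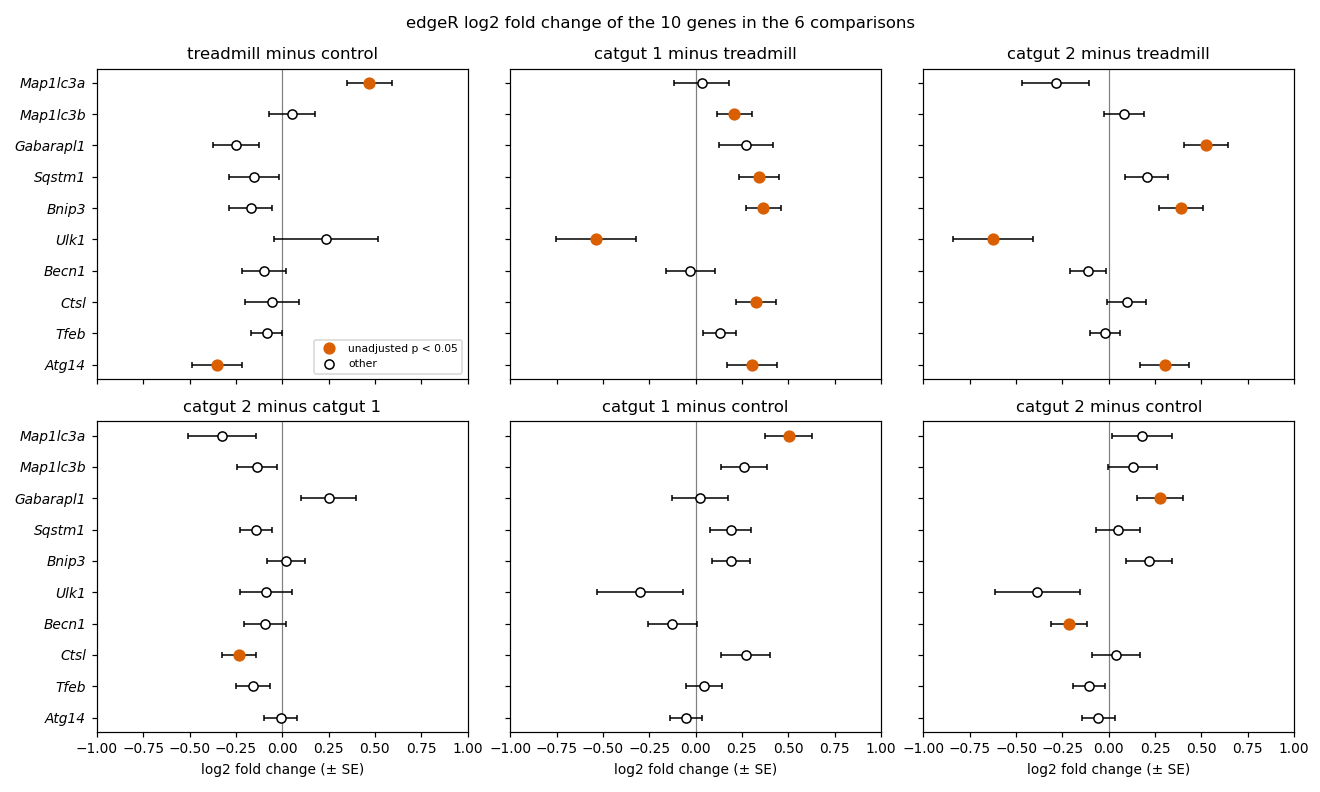
Log2 fold change (x axis, ± SE) of each gene (y axis) in the 6 comparisons, first group minus second, from edgeR with 6 libraries per group. Filled points have an unadjusted p under 0.05, most of them in the panels of catgut 1 and catgut 2 minus treadmill, and 0 have an adjusted p under 0.05.

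Map1lc3a (ENSRNOG00000025443, chromosome 3, 150801289 to 150802935 in the table's unnamed build) encodes LC3A, a membrane protein of the autophagosome. It had the clearest difference between treadmill and control. Its lowest, median and highest levels were 145, 170 and 184 FPKM in the control group and 199, 223 and 267 FPKM in the treadmill group, so the groups did not overlap. This separation in the same direction was seen in 0.325% of all genes. The means were 166 ± 15.6 and 224 ± 24.3 FPKM (SD, n = 6), a log2 fold change of 0.47 (adjusted p = 0.354 from edgeR, SE 0.122). With DESeq2 the adjusted p was 0.0414.
In catgut group 1, Map1lc3a had 193, 229 and 278 FPKM (lowest, median, highest), again above every control library, as were 0.318% of all genes. The log2 fold change against control was 0.5 (SE 0.128, adjusted p = 0.278, and 0.0269 with DESeq2), and against treadmill it was 0.03 (SE 0.148). Catgut group 2 had 150, 184 and 254 FPKM and overlapped all other groups. Replicate 1 was its highest library, and the other 5 lay below every treadmill library and below every catgut 1 library. The log2 fold changes of catgut 2 were -0.29 (SE 0.181) against treadmill, -0.32 (SE 0.183) against catgut 1 and 0.18 (SE 0.161) against control. The unadjusted p from edgeR was over 0.05 in all 3, while limma on log2(FPKM + 1) gave 0.0385, 0.0219 and 0.241. For this gene, catgut 1 and treadmill were thus the neighbours in level that differed least, followed by catgut 2 and control.

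Map1lc3b (ENSRNOG00000017905, chromosome 19, 53629779 to 53646058) encodes LC3B, the form most often used as a marker of autophagosomes. Its means were close together, 76.2 ± 11.8 FPKM in control, 77.8 ± 9.62 in treadmill, 91.4 ± 7.93 in catgut 1 and 83.4 ± 8.21 in catgut 2. With edgeR, only the highest and lowest of the exercised groups, catgut 1 and treadmill, differed at an unadjusted p under 0.05, and their log2 difference was 0.21 (adjusted p = 0.694, SE 0.0933). That p held in 3 of the 12 fits that each left out 1 library. Catgut 1 and control differed by more, 0.26, with a larger SE of 0.124 (unadjusted p = 0.0536 from edgeR). DESeq2 gave this pair an unadjusted p of 0.043 and limma on log2(FPKM + 1) one of 0.0234. The control and treadmill groups differed by 0.05 (SE 0.122), against 0.47 for its paralog Map1lc3a.

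Gabarapl1 (ENSRNOG00000053362, chromosome 4, 163293724 to 163302858) encodes a protein of the GABARAP branch, which acts later in autophagosome closure. Its lowest, median and highest levels were 53, 65.7 and 83.2 FPKM in the treadmill group and 74, 102 and 121 FPKM in catgut group 2. Here 4 of 6 catgut 2 libraries lay above every treadmill library. The log2 fold change was 0.53 (adjusted p = 0.104 from edgeR, SE 0.119), with an adjusted p of 0.00318 from DESeq2 and 0.173 from limma on log2(FPKM + 1). Among the 14772 genes its p ranked 106.
The control group had 66.6, 83 and 98.8 FPKM, between treadmill and catgut 2. Against control, the log2 fold change was -0.25 for treadmill (adjusted p = 0.558, SE 0.123) and 0.28 for catgut 2 (adjusted p = 0.295, SE 0.125). The latter kept an unadjusted p under 0.05 in 3 of 12 fits that each left out 1 library, and the difference from treadmill in 12 of 12. Catgut group 1 spread over 57.9 to 125 FPKM and differed from no other group at an unadjusted p under 0.05. Within the control and treadmill groups, Gabarapl1 was highest in control replicate 2 and treadmill replicate 3, both high in liver transcripts. Without the libraries high in liver transcripts, the log2 fold change of catgut 2 against treadmill was 0.58 (adjusted p = 0.0895).

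Sqstm1 (ENSRNOG00000003147, chromosome 10, 35704730 to 35716294) encodes p62, the receptor that links ubiquitinated cargo to LC3. The treadmill group had 285, 415 and 436 FPKM (lowest, median, highest) and catgut group 1 had 428, 509 and 559 FPKM, with 5 of 6 catgut 1 libraries above every treadmill library. The means were 390 ± 58.6 and 504 ± 46.3 FPKM, a log2 fold change of 0.34 (SE 0.107, with an adjusted p of 0.404, and 0.0855 with DESeq2). Catgut group 2, with 458 ± 31 FPKM, lay between them, and its log2 fold change against treadmill was 0.2 (adjusted p = 0.569, SE 0.114). The control group had 441 ± 66.3 FPKM and had an unadjusted p over 0.05 against each exercised group. The log2 fold changes against it were -0.15 for treadmill, 0.19 for catgut 1 and 0.05 for catgut 2.

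Bnip3 (ENSRNOG00000017243, chromosome 1, 211248098 to 211265282) encodes the mitochondrial receptor of mitophagy, known to respond to low oxygen. It was higher in both catgut groups than in the treadmill group at an unadjusted p under 0.05. The lowest, median and highest levels were 198, 248 and 306 FPKM in treadmill, 277, 328 and 411 in catgut 1 and 242, 339 and 450 in catgut 2. Of the 6 libraries, 4 of catgut 1 and 3 of catgut 2 lay above every treadmill library. The log2 fold changes against treadmill were 0.36 for catgut 1 (SE 0.0946, adjusted p = 0.285 from edgeR and 0.0148 from DESeq2) and 0.39 for catgut 2 (SE 0.117, adjusted p = 0.225 and 0.0554). In control and in treadmill, the 3 libraries high in Y-linked genes were the 3 lowest for Bnip3. This order was not kept in the catgut groups, although the lowest library of each was high in Y-linked genes. In catgut 1, replicates 5 and 6 (334 and 321 FPKM), high in Y-linked genes, lay above replicate 1 (299), which was low. In catgut 2, replicate 5 (305), high in them, lay above replicate 6 (286), which was low. With the Y-linked level as a covariate, the log2 fold changes against treadmill were 0.37 for catgut 1 and 0.35 for catgut 2 (edgeR, adjusted p = 0.174 and 0.189). The part of sex was not tested. The catgut groups differed from each other by 0.02 (SE 0.104). The control group, with 288 ± 35.5 FPKM, lay between treadmill and the catgut groups. No comparison with it had an unadjusted p under 0.05 in the main edgeR fit (all libraries of the 2 groups, no covariate). With the Y-linked level as a covariate, edgeR gave an unadjusted p of 0.0402 for treadmill and 0.0315 for catgut 1 against control. Without the libraries high in liver transcripts, the unadjusted p from edgeR for catgut 1 against control was 0.0412.

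Ulk1 (ENSRNOG00000037505, chromosome 12, 51908448 to 51934702), the kinase that starts autophagy and a target of AMPK and mTOR, had lower means in both catgut groups than in the treadmill group. Its lowest, median and highest levels were 11.3, 16 and 29.1 FPKM in control, 12.2, 17.9 and 32.5 in treadmill, 10.2, 14 and 20.5 in catgut 1 and 10, 13 and 17.2 in catgut 2. The groups overlapped widely. Against treadmill, the log2 fold change was -0.54 for catgut 1 (adjusted p = 0.607, SE 0.215) and -0.62 for catgut 2 (adjusted p = 0.281, SE 0.216). The ratio of the catgut 2 to the treadmill mean was 0.666, just past a 1.5-fold ratio. Ulk1 was highest in control replicate 2 and in treadmill replicate 3, the 2 libraries highest in liver transcripts and both low in Y-linked genes. Treadmill replicate 1, also low in Y-linked genes, had 26.8 FPKM with a liver sum of 0.584. In control, replicates 1 to 3 (18.2 to 29.1 FPKM) lay above replicates 4 to 6 (11.3 to 13.7), which were high in Y-linked genes. With the Y-linked level as a covariate, catgut 2 against control had a log2 fold change of -0.46 (edgeR, unadjusted p = 0.0121, adjusted p = 0.173), beside -0.39 without it. The part of sex was not tested. Without the libraries high in liver transcripts, the log2 fold changes against treadmill were -0.41 (unadjusted p = 0.0507 from edgeR) for catgut 1 and -0.5 (unadjusted p = 0.0191) for catgut 2. Leaving out 1 library at a time, the unadjusted p stayed under 0.05 in 7 of 12 fits for catgut 1, not without treadmill replicate 1 or 3 or catgut 1 replicate 4, 5 or 6, and in 12 of 12 for catgut 2.

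Becn1 (ENSRNOG00000020513, chromosome 10, 89209940 to 89225297), the core subunit of the lipid kinase complex, varied little. Its means were 21.3 ± 2.69 FPKM in control, 19.5 ± 2.67 in treadmill, 19.3 ± 2.41 in catgut 1 and 18.4 ± 1.62 in catgut 2. The groups at the ends of this order, control and catgut 2, had a log2 difference of -0.21 (catgut 2 minus control, adjusted p = 0.289, SE 0.0962), whose unadjusted p stayed under 0.05 in 4 of 12 fits that each left out 1 library. The other 5 comparisons lay between -0.13 and -0.03 with unadjusted p over 0.05.
Atg14 (ENSRNOG00000011873, chromosome 15, 24343314 to 24374753) directs that complex to the site where autophagosomes form. Its lowest, median and highest levels were 2.57, 3.16 and 3.68 FPKM in control and 1.51, 2.47 and 3.17 in treadmill, where 4 of 6 libraries lay below every control library. The log2 fold change was -0.35 (adjusted p = 0.493, SE 0.135). Catgut group 1 had 3.04 ± 0.47 FPKM and catgut group 2 had 3.03 ± 0.424, close to the 3.14 ± 0.363 of the control group. Against treadmill, each had a log2 fold change of 0.3 (SE 0.134 for both), with adjusted p of 0.681 for catgut 1 and 0.437 for catgut 2. Those unadjusted p-values stayed under 0.05 in 5 of 12 fits that each left out 1 library, and the difference between treadmill and control did so in 12 of 12.

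Ctsl (ENSRNOG00000018566, chromosome 17, 1872848 to 1879279) encodes cathepsin L, a lysosomal protease that is known to increase in wasting muscle. Its means were 103 ± 20.8 FPKM in control, 97.9 ± 18.8 in treadmill, 125 ± 17.9 in catgut 1 and 107 ± 13.4 in catgut 2. Catgut group 1 was higher than treadmill, by 0.33 on the log2 scale (adjusted p = 0.475, SE 0.11), although only 2 of its 6 libraries lay above every treadmill library. With edgeR it was also the one gene of the 10 with an unadjusted p under 0.05 between the catgut groups, with a log2 fold change of -0.23 for catgut 2 against catgut 1 (adjusted p = 1, SE 0.0902). That p was lost without catgut 1 replicate 5 or catgut 2 replicate 5 or 6, and held in 6 of 10 other settings. Limma on log2(FPKM + 1) gave Ctsl an unadjusted p of 0.0607, and instead put Map1lc3a (0.0219) and Tfeb (0.0412) under 0.05. Macrophages are also rich in cathepsin L. All 8 macrophage markers listed were in the table, none was at 0 in any library, and their summed level was 25.3 to 173 FPKM in treadmill, 31.3 to 58.3 in catgut 1, 23.7 to 78.1 in catgut 2 and 28.7 to 97.9 in control. Ctsl and these markers were both highest among treadmill libraries in replicate 2. In treadmill replicate 1, however, the markers had 108 FPKM and Ctsl 80.6, and in replicate 5 the markers had 26.5 and Ctsl 112. In catgut 1 against treadmill, where Ctsl was higher, all 8 markers had negative log2 fold changes, from -0.95 (Adgre1) to -0.01 (Cd163). Their unadjusted p from edgeR was over 0.05. The part of macrophages in the level of Ctsl was not tested.
Tfeb (ENSRNOG00000014666, chromosome 9, 15207822 to 15214596), the transcription factor that controls lysosomal and autophagy genes mainly through its own movement into the nucleus, differed at an unadjusted p under 0.05 from edgeR in none of the 6 comparisons. Its means were 24.3 ± 2.57 FPKM in control, 22.4 ± 1.1 in treadmill, 24.9 ± 1.62 in catgut 1 and 22.5 ± 1.14 in catgut 2. The largest log2 fold change, between the catgut groups, was -0.16 (SE 0.0929), and 4 of 6 catgut 2 libraries lay below every catgut 1 library. Limma on log2(FPKM + 1) gave Tfeb an unadjusted p of 0.0412 in that comparison and of 0.0404 in catgut 1 against treadmill.

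The 13 clock genes listed were all in the table and at 0 in no library. Their summed level was 112 to 205 FPKM in treadmill, 237 to 360 in catgut 1, 237 to 344 in catgut 2 and 139 to 375 in control. In this sum the treadmill group did not overlap either catgut group, while control overlapped all. At an unadjusted p under 0.05 from edgeR, 8 of the 13 were higher (3.44% of all genes) and 2 lower (3.49%) in catgut 1 than in treadmill. In catgut 2 against treadmill, 8 were higher (5.6%) and 3 lower (5.14%). The list thus differed in both directions, and Dbp, with mean levels of 23.3 FPKM in treadmill, 99 in catgut 1 and 106 in catgut 2, carried much of the sum. Cry1 and Clock had unadjusted p over 0.05 in both comparisons, with log2 fold changes of -0.07 and -0.42 in catgut 1. Per2 and Arntl, core clock genes of opposite phase, were named like Dbp, Cry1 and Clock after their values were seen. Against treadmill, Per2 had log2 fold changes of 2.06 in catgut 1 (adjusted p = 0.0188) and 2.19 in catgut 2 (adjusted p = 0.00691), and Arntl had -1.80 (adjusted p = 0.123) and -2.37 (adjusted p = 0.00494). The time of day at which each rat was killed is not given in the sources used here, and its part in the differences of Gabarapl1, Bnip3, Atg14 and Ulk1 between the same groups was not tested.

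Of 69 other genes of the pathway, listed by role, 67 were in the table and all 67 were tested, and none had an adjusted p under 0.05 from edgeR in any comparison. Between catgut 1 and treadmill, 4 were higher and 2 lower at an unadjusted p under 0.05 (8.96% of the 67, where 6.93% of all genes had it, 3.44% higher and 3.49% lower), and the median log2 fold change was 0.02, beside 0.24 for the 10 genes and -0.01 for all genes tested. Between catgut 2 and treadmill there were also 4 higher and 2 lower (8.96%, beside 10.7% of all genes, 5.6% higher and 5.14% lower), with a median of -0.03 beside 0.09 for the 10 genes. Between treadmill and control, 0 were higher and 5 lower (7.46%, beside 9.12% of all genes, 4.03% higher and 5.08% lower), with a median of -0.01 beside -0.09 for the 10 genes. The table's own pathway annotation, without the 10 genes, gave 115 KEGG autophagy, 54 KEGG mitophagy and 105 KEGG lysosome genes that were tested. Between catgut 1 and treadmill, 7.83% of the autophagy, 3.7% of the mitophagy and 6.67% of the lysosome genes had an unadjusted p under 0.05, beside 6.93% of all genes. Between catgut 2 and treadmill these were 14.8%, 3.7% and 12.4%, beside 10.7%, so the KEGG autophagy share lay above that of all genes where the share of the 67 listed genes lay below it. Between treadmill and control they were 3.48%, 9.26% and 5.71%, beside 9.12%. Between catgut 1 and control they were 8.7%, 13% and 7.62%, beside 9.84%. Between the catgut groups they were 0.87%, 1.85% and 3.81%, beside 3.26%. Between catgut 2 and control they were 15.7%, 24.1% and 13.3%, beside 16.4%. Of the mitophagy genes in that last share, 4 were higher and 9 lower (8.04% and 8.4% of all genes). The 67 listed genes had 7.46%, 1.49% and 10.4% in these 3 comparisons.

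**Figure D3:**
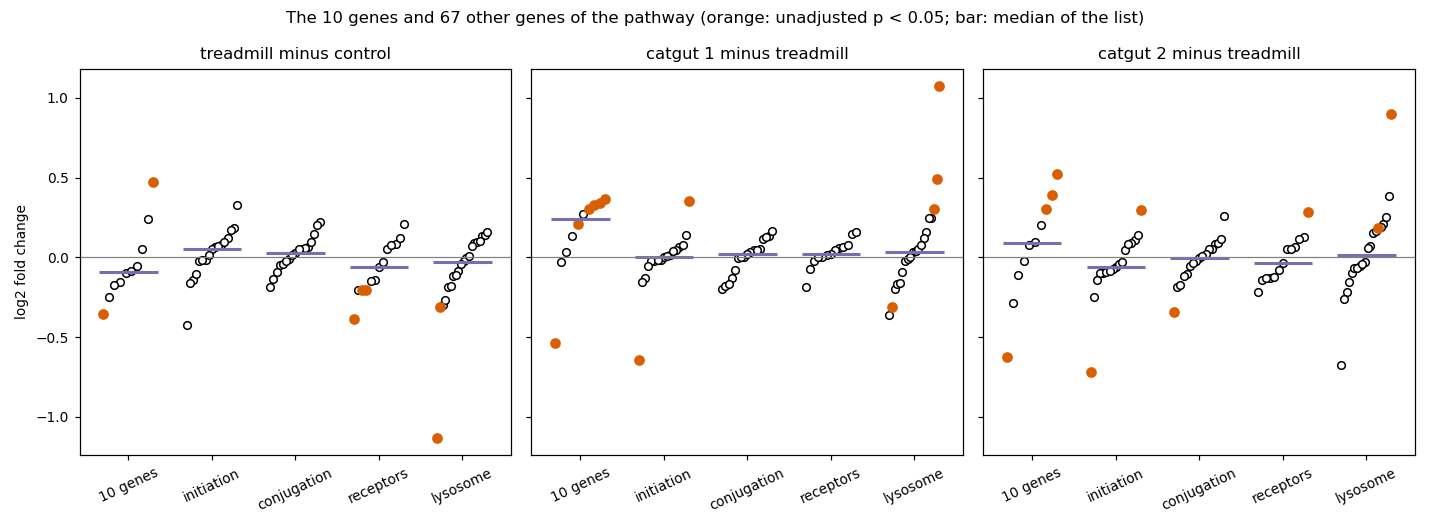
Log2 fold change (y axis) of the 10 genes and of 67 other pathway genes in 4 lists by role (x axis: initiation and nucleation, conjugation and fusion, receptors and mitophagy, lysosome and regulators) in 3 comparisons, with 1 point per gene and the median of each list as a bar. Between catgut 1 and treadmill the bar of the 10 genes is at 0.24 and those of the other lists lie near 0.

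Among initiation genes, Nrbf2, a subunit of the lipid kinase complex that holds Atg14 and Becn1, had the smallest p of the list. It had 14.4 ± 3.35 FPKM in treadmill, 9.42 ± 2.86 in catgut 1 and 8.86 ± 1.3 in catgut 2, with log2 fold changes against treadmill of -0.64 (adjusted p = 0.277) and -0.72 (adjusted p = 0.0624). Atg101, which stabilises the Ulk1 complex, had 30.4 ± 2.43 FPKM in treadmill, 39.9 ± 4.3 in catgut 1 and 38.2 ± 2.45 in catgut 2. All 6 libraries of each catgut group lay above every treadmill library, as for 0.298% of all genes in catgut 1 and 0.582% in catgut 2, with log2 fold changes of 0.36 (adjusted p = 0.366) and 0.3 (adjusted p = 0.352). Relative to treadmill, the fitted differences of Atg101 and Ulk1 thus had opposite signs in both catgut groups, and so had those of Nrbf2 and Atg14. Pik3c3, the catalytic subunit, was lower than control in catgut 1 and in catgut 2 by log2 fold changes of -0.19 (adjusted p = 0.462) and -0.21 (adjusted p = 0.166). Between the catgut groups, Atg2b, a lipid transfer protein, had a log2 fold change of -0.19 and Rab7a, a GTPase of late endosomes, one of -0.23, both with an adjusted p of 1.
Among receptors, Tax1bp1, a receptor of the same kind as Sqstm1, had 15.4 ± 3.78 FPKM in control, 11.6 ± 3.86 in treadmill, 12 ± 2.79 in catgut 1 and 10.6 ± 2.52 in catgut 2. Its log2 fold changes against control were -0.39 (adjusted p = 0.511), -0.34 (adjusted p = 0.486) and -0.54 (adjusted p = 0.111). Nbr1, another receptor of that kind, had a log2 fold change of -0.20 between treadmill and control, and Optn, a mitophagy receptor, one of -0.29 between catgut 2 and control (adjusted p = 0.129).
Among lysosomal genes and regulators, Ddit4, a stress-induced inhibitor of mTOR, had the largest log2 fold changes of the list against treadmill. Its level was 8.85 ± 3.07 FPKM in treadmill, 19.4 ± 6.96 in catgut 1, 17.2 ± 8.17 in catgut 2 and 20.3 ± 14.4 in control. Against treadmill, the log2 fold changes were 1.07 for catgut 1 (adjusted p = 0.193, SE 0.251) and 0.9 for catgut 2 (adjusted p = 0.337, SE 0.334), and 5 and 4 of 6 libraries lay above every treadmill library. Zkscan3, a repressor of autophagy genes, had a log2 fold change of -0.31 between treadmill and control (adjusted p = 0.446), with 5 of 6 treadmill libraries below every control library. Rragc, a GTPase that carries the amino acid signal to mTOR, had 0.18 between catgut 2 and treadmill (adjusted p = 0.302) and 0.13 between the catgut groups (adjusted p = 1).

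Across the 24 libraries the 10 genes did not vary as 1 block. Over their 45 pairs, the median of Pearson's r for log2(FPKM + 1) was 0.16, with 6 pairs over 0.5 and 17 below 0. The highest were Gabarapl1 with Bnip3 and Sqstm1 with Ctsl (0.70 each), Bnip3 with Atg14 (0.65) and Map1lc3b with Sqstm1 (0.63). Map1lc3a ran against Atg14 (-0.55), Becn1 (-0.43) and Bnip3 (-0.37). With each group's mean removed, these became 0.60, 0.59, 0.58, 0.53, -0.57, -0.47 and -0.60, with the same signs. The libraries share their groups, and the values describe these 24 rats only.
Among 9287 genes with a symbol and a mean of at least 1 FPKM, the gene most like each member over the 24 libraries was found by the same r. It was Git1 for Map1lc3a (0.84), Psmd3 for Map1lc3b (0.79), Prdx1 for Gabarapl1 (0.81), Psmd8 for Sqstm1 (0.84) and Oat for Bnip3 (0.90). For the others it was Sesn1 for Ulk1 (0.85), Prkab2 for Becn1 (0.81), Il15 for Ctsl (0.78), Ppm1g for Tfeb (0.77) and Psmd14 for Atg14 (0.86). None of these is among the 10 genes. Psmd3, Psmd8 and Psmd14 encode subunits of the proteasome's regulatory particle, and the share of such genes among the 9287 was not counted. With each group's mean removed, the r of these 3 became 0.68, 0.77 and 0.83. The second most alike genes for the same members were Sdc4, Keap1 and Rbm5.

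**Figure D4:**
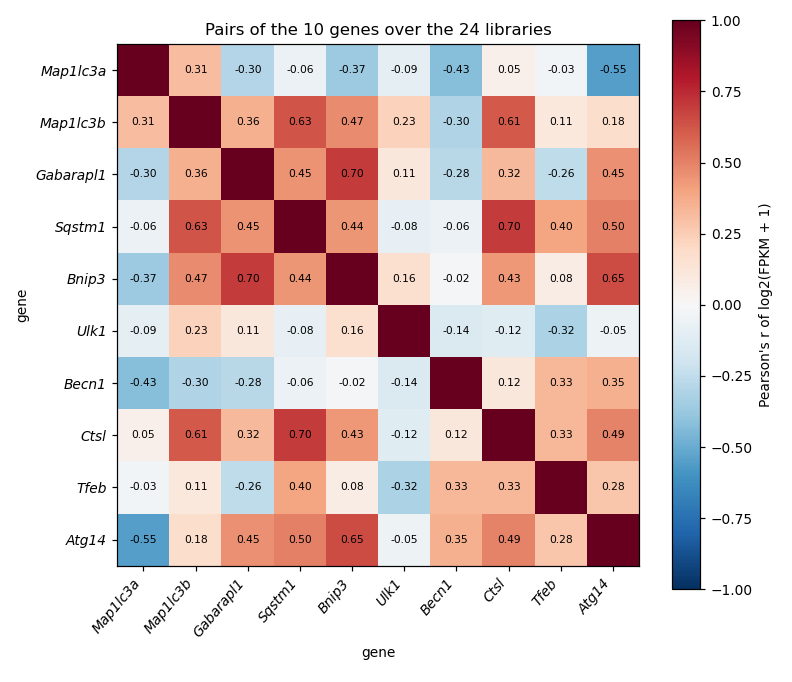
Pearson's r of log2(FPKM + 1) over the 24 libraries for each pair of the 10 genes (both axes), from blue (negative) to red (positive). Gabarapl1 with Bnip3 and Sqstm1 with Ctsl are highest (0.70 each), and Map1lc3a with Atg14 is lowest (-0.55).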

How the data were processed

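The authors sequenced paired-end poly(A) libraries of quadriceps femoris from 24 rats, 1 per rat. The submitters' processing notes name HISAT2 2.0 and StringTie 1.3.0, and the genome build is not given in the sources used here. The deposited table gives each gene a count and an FPKM value per library, the latter normalized by the authors to transcript length and mapped fragments. The deposited counts are whole numbers whose commonest values above 0 are 4 and 8, for a reason that is not given in the sources used here. Genes averaging 0.1 FPKM or more were tested on counts with edgeR 4.0.16 (TMM, quasi-likelihood test, R 4.3.3), fitting only the groups compared, with Benjamini-Hochberg adjustment over all 14772 genes. SE was taken from the log2 fold change and the F statistic. Groups came from the treatment label, and no libraries held identical counts. The members and gene lists were chosen with earlier results of these data known. All 10 members are named; of the listed pathway genes, those at an adjusted p under 0.05 and the 3 with the smallest p in each comparison; and for each member the gene with the highest r. Alternatives were no filter, a mean FPKM of at least 1, median-ratio scaling, DESeq2 1.42.0, limma 3.58.1 on log2(FPKM + 1) or log2(FPKM + 0.1), 1 fit over all groups, a block for replicate number, a covariate for the level of Y-linked genes, counts divided by 4, each library left out and, chosen after seeing the data, 3 libraries high in liver transcripts left out. The fits were tested on simulated counts. Figures were drawn with matplotlib 3.10.9. Each comparison rests on 6 rats per group, and p-values cover the spread between these samples.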

Additional observations from a re-analysis of the deposited data

How the results depend on the processing

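None of the alternatives reversed the direction of a difference that had an unadjusted p under 0.05. Over the fits that each left out 1 library, 651 of 720 gene and comparison results stayed on the same side of that p, 48 lost it and 21 gained it, and over the other alternatives 594 of 650 stayed, 31 lost it and 25 gained it. With DESeq2, an adjusted p under 0.05 was found for 1 gene, not 0, between treadmill and control, between catgut 1 and treadmill, between catgut 2 and treadmill and between catgut 1 and control (0.758%, 0.941%, 2.09% and 1.1% of all genes). Percentages below are the shares of all genes at an unadjusted p under 0.05 in the same fits. The number of genes at an unadjusted p under 0.05 between treadmill and control was 2 (9.12%), and 4 with the Y-linked level as a covariate (8.9%). Between catgut 1 and treadmill it was 6 (6.93%), and 4 with a mean FPKM of at least 1 (6.99%). It was 5 with all 4 groups in 1 fit, the replicate block, limma or the libraries high in liver transcripts left out (5.27% to 7.61%). Ulk1 was lost with limma and without those libraries. Limma on log2(FPKM + 1) also lost Atg14 (unadjusted p = 0.0824) and gained Tfeb (0.0404). Between catgut 2 and treadmill it was 4 (10.7%), and 5 with limma at either pseudocount (9.6% and 9.71%). It was 3 with a mean FPKM of at least 1, the Y-linked level or the libraries high in liver transcripts left out (11.4% to 12.5%). In this comparison limma on log2(FPKM + 1) lost Atg14 (unadjusted p = 0.0773) and gained Sqstm1 (0.0365) and Map1lc3a (0.0385). Between catgut 1 and control it was 1 (9.84%), and 3 with DESeq2, with the Y-linked level or with all 4 groups in 1 fit (10% to 10.3%), and 2 with limma at either pseudocount, a mean FPKM of at least 1 or the libraries high in liver transcripts left out (7.89% to 10.7%). Between catgut 2 and control it was 2 (16.4%), and 1 with DESeq2, the Y-linked level, median-ratio scaling or no filter (13.5% to 17.4%), and 0 with all 4 groups in 1 fit or limma at either pseudocount (14.6% to 16.2%). Between the catgut groups it was 1 (3.26%), and 0 with all 4 groups in 1 fit (3.32%) and 2 with limma at either pseudocount (3.05% and 3.13%). The 1 gene was Ctsl, which was not among those found with limma. The replicate number as a block gave 0 between the catgut groups (3.32%) and 0 between catgut 2 and control (15.4%), and moved no other count by over 1.5 times. The sources used here do not say whether equal numbers pair the rats. Same-numbered libraries deviated together with an r over 0.1 in 8 of 36 pairs (lowest -0.45, highest 0.27), which cannot exclude pairing. Y-linked genes were high in replicates 4 to 6 of control, treadmill and catgut 1 but in replicates 1 and 5 of catgut 2. The block thus partly follows the Y-linked level. The cause of these changes in count was not tested. Leaving out each library gave 2 to 3 genes between treadmill and control (6.38% to 14.3%), 3 to 5 between catgut 1 and treadmill (5.95% to 8.21%; 3 without catgut 1 replicate 5), 3 to 5 between catgut 2 and treadmill (8.62% to 12.8%), 0 to 5 between the catgut groups (2.49% to 5.59%; 5 without catgut 2 replicate 1, 0 without catgut 1 replicate 5 or catgut 2 replicate 5 or 6, 2 without catgut 1 replicate 2 or 3), 1 to 4 between catgut 1 and control (7.7% to 12.2%; 4 without control replicate 6, 2 without control replicate 2 or 3 or catgut 1 replicate 1 or 6) and 0 to 2 between catgut 2 and control (13.7% to 20.3%; 0 without control replicate 1, 3 or 6 or catgut 2 replicate 3 or 4, 1 without control replicate 5 or catgut 2 replicate 1, 2, 5 or 6), with 0 to 0 at an adjusted p under 0.05 in all 6. With counts divided by 4, the number of genes at an unadjusted p under 0.05 was the same in all 6 comparisons. How much counting error adds to the spread between rats was not tested.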
